A study of Mus musculus with 2 samples.

Results

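The nuclear receptors are transcription factors, many of which are switched by small lipophilic ligands. Here 39 genes of this superfamily were followed in cultured mouse cells labelled as intestinal stem cells. The members were a fixed list of the superfamily without the clock receptors Nr1d1 and Nr1d2, taken by symbol from the expression tables of both libraries, which were joined by Entrez gene number. All 39 were found among the 18944 genes listed. They were sorted by the kind of ligand they bind, or as orphans where no physiological ligand settles the class.

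RNA sequencing had been done on 1 library of Stat6 knockout (KO) cells and 1 library of wild-type (WT) cells, from mice aged 2 months. Both genotypes carried Lgr5GFP-CreERT2, an allele in which the Lgr5 locus drives green fluorescent protein together with tamoxifen-inducible Cre. STAT6 is the transcription factor that IL-4 and IL-13 activate. The labels describe lentiviral CRISPR/Cas with Stat6 guide RNAs and a screen for deficient cells, in the same words under both samples, so what the WT culture received, and whether the KO culture is a single clone, the labels leave unsaid. Both cultures grew in medium with N2, B27, EGF, Rspo1 and the kinase inhibitor Y27632. As background, N2 supplies progesterone, and the standard B27 formula supplies corticosterone, progesterone, retinyl acetate and triiodothyronine, which are ligands or ligand precursors of several of these receptors. With 1 library per genotype, no difference below has a replicate check or a test.

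A typical nuclear receptor joins a zinc-finger domain that binds short hexamer repeats in DNA to a pocket that binds a hormone, vitamin, fatty acid, bile acid or drug. Many, including the receptors for retinoids, thyroid hormone, fatty acids, oxysterols, bile acids, vitamin D and foreign compounds, act as pairs with a retinoid X receptor (RXR). In the gut epithelium, HNF4 proteins maintain the absorptive programme, the vitamin D receptor drives calcium uptake, FXR senses bile acids, and PXR and CAR induce enzymes and pumps that clear foreign compounds.

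Because the KO is labelled as lacking STAT6, the start regions of the receptors were searched for TTCNNNNGAA, a spacing that STAT6 binds, for TTCNNNGAA, the spacing of other STAT proteins, and for AGGTCA, the hexamer of many nuclear receptors, on both strands. RefSeq windows (GRCm38.p6, a later build than the mm9 of the expression files) from 250 bases before to 50 bases after a start were present for 36 of the 39 members. TTCNNNNGAA, which reads the same on both strands, occurred for 5 of these 36 members, which is 13.9%, against 8.01% of 27025 genes with a window. These members were Esrrb, Nr2f2, Nr5a2, Nr6a1 and Vdr. TTCNNNGAA occurred for 6 members (16.7%, against 9.55% of genes) and AGGTCA for 9 (25%, against 18.1%), while the direct repeat AGGTCANAGGTCA occurred for 0 members and 0.0481% of genes. Members with several starts had several windows, so 56 windows stood for the 36 members, against 32851 windows for all genes, and by window 6.95% of all windows held TTCNNNNGAA. A match is a description of the letters and not a bound site. Shown are the receptors past 2-fold (Nr1i3 and Ppara) and, with their STAT6-type match in capitals, Vdr and the Nr5a2 window that holds one. The printed matches are those of members that read higher in KO, with log2 ratios, defined below, of 0.94 (Vdr) and 0.68 (Nr5a2). The matches of Nr2f2 (-0.28), Nr6a1 (-0.06 as deposited) and Esrrb, which stayed below 1 FPKM in both libraries, are not printed.
Nr1i3, chr1:171213720-171214019, plus strand: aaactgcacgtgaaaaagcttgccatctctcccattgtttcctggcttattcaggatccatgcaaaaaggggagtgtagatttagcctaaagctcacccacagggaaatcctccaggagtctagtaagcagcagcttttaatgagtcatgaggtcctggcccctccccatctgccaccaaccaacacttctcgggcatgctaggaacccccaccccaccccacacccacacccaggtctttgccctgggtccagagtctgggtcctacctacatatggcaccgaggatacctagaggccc
Ppara, chr15:85735526-85735825, plus strand: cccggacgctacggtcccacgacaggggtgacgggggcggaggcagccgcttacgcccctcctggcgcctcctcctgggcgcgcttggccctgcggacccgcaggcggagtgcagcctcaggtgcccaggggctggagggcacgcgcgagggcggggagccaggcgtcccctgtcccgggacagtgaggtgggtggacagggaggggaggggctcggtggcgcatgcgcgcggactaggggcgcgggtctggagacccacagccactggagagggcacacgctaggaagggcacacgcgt
Vdr, chr15:97908247-97908546, minus strand: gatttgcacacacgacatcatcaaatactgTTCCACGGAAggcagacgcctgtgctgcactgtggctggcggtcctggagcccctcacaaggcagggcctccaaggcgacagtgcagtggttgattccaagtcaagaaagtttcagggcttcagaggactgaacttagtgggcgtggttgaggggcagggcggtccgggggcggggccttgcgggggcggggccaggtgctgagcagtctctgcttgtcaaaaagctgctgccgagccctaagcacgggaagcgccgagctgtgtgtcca
Nr5a2, chr1:136953581-136953880, minus strand: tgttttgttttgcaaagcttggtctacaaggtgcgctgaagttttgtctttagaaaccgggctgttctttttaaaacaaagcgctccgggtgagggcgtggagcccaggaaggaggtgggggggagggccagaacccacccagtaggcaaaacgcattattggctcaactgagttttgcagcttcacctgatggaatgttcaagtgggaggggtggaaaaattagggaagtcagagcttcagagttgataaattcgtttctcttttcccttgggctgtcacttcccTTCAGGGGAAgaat
The Vdr match, TTCCACGGAA, began at position -220, counted from the start, and the Nr5a2 match, TTCAGGGGAA, at position 37. The printed Nr1i3 and Ppara windows held 0 matches to any of the 3 motifs, and no printed match overlapped another. Their base composition differed widely, with 54% G and C in the Nr1i3 window and 74.7% in the Ppara window.

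The values are FPKM, fragments per kilobase of transcript relative to the mapped total, so that levels can be set side by side between genes. Differences, called log2 ratios here, are log2((KO FPKM + 1)/(WT FPKM + 1)) for every gene that reached 1 FPKM in KO, in WT or in both. A gene is called higher or lower in KO at a log2 ratio of at least 1 in size, which is 2-fold. Over 12079 such genes the median log2 ratio was -0.18, 2.44% were higher in KO and 2.18% were lower. The depth, estimated from the steps of the values within a limited search range, was 20500000 reads in KO and 20100000 in WT. The labels give an average of 59000000 reads a sample. All read numbers and counting intervals below rest on the estimate. Stat6 itself was at 44.2 FPKM in KO and 41.3 FPKM in WT, which does not check the label, since CRISPR lesions need not lower a transcript.

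The label of stem cells was checked against marker lists. Lgr5 was at 1.88 FPKM in KO and 1.79 FPKM in WT, and of 9 stem cell markers 0 were higher and 2 lower (Sox9 and Cd44), with summed levels of 103 FPKM in KO and 184 FPKM in WT. Cd44, at 28.8 FPKM in KO and 85.9 FPKM in WT, was the largest part of that gap. By log2 ratio 3 of the 9 (Lgr5, Smoc2 and Tnfrsf19) lay above 0 and 6 below. Of 11 absorptive enterocyte markers 10 were higher in KO, and their summed level was 15840 FPKM in KO and 4398 FPKM in WT. The sums of enteroendocrine (6 markers, 378 and 754 FPKM in KO and WT), white blood cell (8 markers, 16.6 and 41.0 FPKM), endothelial (6 markers, 8.73 and 20.1 FPKM) and fibroblast markers (7 markers, 2.89 and 5.62 FPKM) were lower in KO. Goblet (6 markers, 2062 and 1518 FPKM), Paneth (5 markers, 2118 and 1888 FPKM) and tuft cell markers (5 markers, 9.05 and 12.4 FPKM) differed less. No marker of any list was at 0 in either library. In both libraries the sums of enterocyte, goblet, Paneth and enteroendocrine markers were above that of the stem cell markers, in lists of unlike length. The name stem cells is therefore kept here as a label only. In bulk RNA, more cells of a type and more RNA per cell cannot be told apart, and the part of the enterocyte difference in the receptor values below was not tested.

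Receptor levels ranged from near silence to those of abundant transcripts. Of the 39 members, 29 reached 1 FPKM in at least 1 library, and 10 stayed below it in both. Hnf4a stood first in both libraries, and its 252 FPKM in KO and 178 FPKM in WT made up 29.2% and 28.1% of the summed receptor level of 863 FPKM in KO and 631 FPKM in WT. Esrra and Vdr came next in both. In KO the places after these went to Hnf4g, Pparg, Nr2f6, Nr1h2 and Nr1i2, and in WT to Nr1h2, Nr2f6, Hnf4g, Ppard and Nr1i2. Neighbours in this order have no spread over samples, and Nr2f6 at 36.8 FPKM, Nr1h2 at 35.8 FPKM and Nr1i2 at 34.9 FPKM in KO lay close together.

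**Figure D1:**
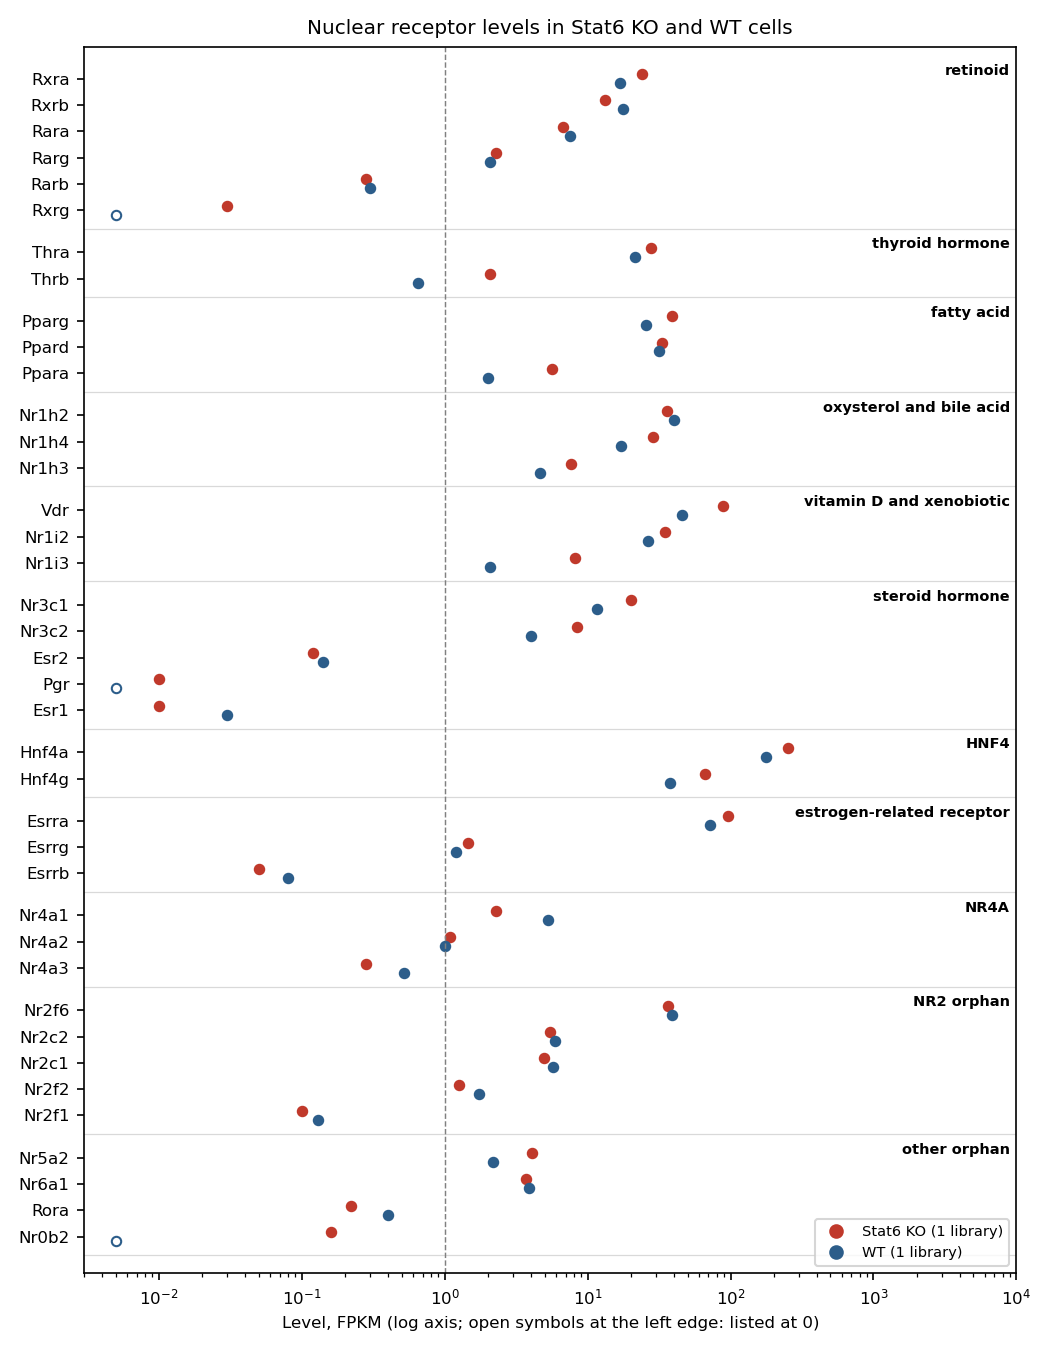
Level of each nuclear receptor in FPKM on a log axis, with the Stat6 KO library in red above the WT library in blue in each row, grouped by ligand class. Open symbols at the left edge mark the 3 members listed at 0 in WT, and the dashed line is 1 FPKM.

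Most receptors with a level read higher in KO, by amounts mostly below 2-fold. Of these 29 members, 2 were at least 2-fold higher in KO (Nr1i3 and Ppara) and 0 were lower, beside 2.44% and 2.18% of all genes. Their median log2 ratio was 0.39, against -0.18 over all genes, and 20 of the 29 lay above 0, where 30.3% of all genes did. By the plain ratio of FPKM values, 4 members (adding Nr3c2 and Thrb) were at least 2-fold higher, beside 3.23% of all genes, and 1 (Nr4a1) was at least 2-fold lower, beside 5.75%. The highest 5% of all genes began at a log2 ratio of 0.63, and 9 members lay beyond that value, namely Nr1i3, Ppara, Vdr, Nr3c2, Thrb, Hnf4g, Nr1h4, Nr3c1 and Nr5a2. On the other side Nr4a1 lay below -0.78, where the lowest 5% begin. The 17 members of the ligand classes had a median log2 ratio of 0.58 and the 12 orphans a median of 0.00. Neither group was uniform. Of the orphans 6 lay above 0 and 6 below, with class medians of 0.65 for HNF4 and -0.135 for the NR2 orphans. Among the ligand classes the retinoid median was -0.02. The KO over WT ratio of summed levels, low members included, was 1.40 for the ligand classes and 1.34 for the orphans. The counts and medians of members describe those that passed the level filter, and Thrb passed it by its KO value only.

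**Figure D2:**
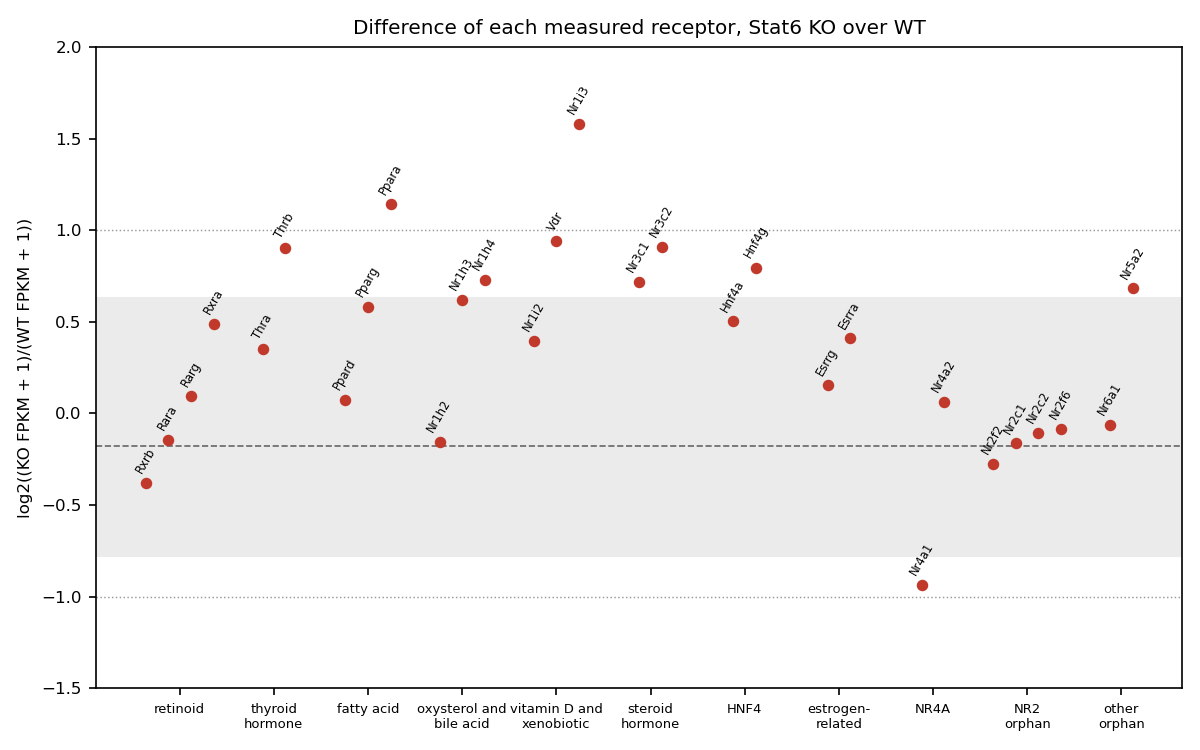
log2 ratio of the 29 measured receptors, Stat6 KO over WT, by ligand class. The dashed line is the median of all 12079 genes (-0.18), the grey band holds the middle of all genes from the 5% to the 95% point (-0.78 to 0.63), and the dotted lines mark 2-fold, which Nr1i3 and Ppara pass.

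The vitamin D and xenobiotic receptors had a class median of 0.94, the highest with the pseudocount of 1 FPKM. With no pseudocount it was 0.96, and that of the thyroid hormone receptors, 0.63 with the pseudocount, was 1.03. The thyroid hormone median rests on 2 genes, of which Thrb passed the level filter by its KO value only. With the pseudocount and a minimum of 1 FPKM in both libraries, which leaves Thra alone, it was 0.35. Nr1i3 (Entrez gene 12355) encodes CAR, which responds to drugs and other foreign compounds, and was at 8.19 FPKM in KO and 2.07 FPKM in WT, a log2 ratio of 1.58. The plain ratio was 3.96, with a 95% counting interval of 2.91 to 5.43 from about 213 and 52.8 reads in KO and WT. Among the 29 members at 1 FPKM or more, this was the largest difference on both scales. Exons of Nr1i3 share bases with Tomm40l on the opposite strand, and Tomm40l was at 12.0 FPKM in both libraries. The labels do not say whether the library kept strand, so reads from the shared bases cannot be told apart. The same holds for 8 other members with such a partner in the files by the GENCODE M21 gene models (Esrra, Nr2c2, Nr2f1, Nr2f2, Nr2f6, Nr3c2, Rarb and Thra), and their values are uncertain to that extent.

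Vdr (Entrez gene 22337), the receptor for the active form of vitamin D, was at 88.8 FPKM in KO and 45.7 FPKM in WT. Its log2 ratio of 0.94 was just short of the 2-fold call, and its plain ratio of 1.94 had a counting interval of 1.87 to 2.02. The absolute gap, 43.1 FPKM, was second among the members to that of Hnf4a, 74.4 FPKM. Nr1i2 (Entrez gene 18171), which encodes the drug sensor PXR, was at 34.9 FPKM in KO and 26.3 FPKM in WT, a log2 ratio of 0.39. CAR therefore made up 19.0% of the PXR and CAR sum in KO and 7.30% in WT.

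Among the receptors for fatty acids, Ppara (Entrez gene 19013), which drives fatty acid oxidation, was at 5.65 FPKM in KO and 2.01 FPKM in WT. Its log2 ratio was 1.14 and its plain ratio 2.81, with a counting interval of 2.23 to 3.57. Pparg (Entrez gene 19016), known for adipocyte differentiation and colon epithelium, was at 38.9 FPKM in KO and 25.6 FPKM in WT (log2 ratio 0.58). Ppard (Entrez gene 19015), a widely expressed regulator of lipid use, was at 33.3 FPKM in KO and 31.5 FPKM in WT, a log2 ratio of 0.08. The order of Pparg and Ppard thus differed between the libraries, with Pparg at 50.0% of the PPAR sum in KO and 43.3% in WT, and Ppard at 42.8% in KO and 53.3% in WT. Ppara stayed the least abundant PPAR in both, at 7.26% in KO and 3.40% in WT.

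The thyroid hormone receptors were both higher in KO, by different amounts. Thrb (Entrez gene 21834) was at 2.09 FPKM in KO and 0.65 FPKM in WT, so its log2 ratio of 0.91 fell short of the call while its plain ratio was 3.22, with a counting interval of 2.39 to 4.37. Thra (Entrez gene 21833), the main thyroid hormone receptor of crypts, was at 27.7 FPKM in KO and 21.5 FPKM in WT, a log2 ratio of 0.35. Thra made up 93.0% of the pair in KO and 97.1% in WT. The end of Thra overlaps Nr1d1 on the opposite strand, and Nr1d1 was at 31.3 FPKM in KO and 18.1 FPKM in WT, so the Thra value is uncertain.

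Of the steroid hormone receptors, those for adrenal hormones were present and those for sex hormones were not above 0.14 FPKM. Nr3c1 (Entrez gene 14815), the glucocorticoid receptor, was at 20.0 FPKM in KO and 11.7 FPKM in WT, a log2 ratio of 0.72. Nr3c2 (Entrez gene 110784), the mineralocorticoid receptor of salt-absorbing epithelia, was at 8.40 FPKM in KO and 4.01 FPKM in WT. Its log2 ratio was 0.91, and its plain ratio of 2.09 had a counting interval of 1.87 to 2.35. Nr3c2 shares exon bases with the lncRNA gene Gm10649, which was at 0.03 FPKM in KO and listed at 0 in WT. Esr2, the second estrogen receptor, was at 0.12 FPKM in KO and 0.14 FPKM in WT. Esr1, the first, was at 0.01 and 0.03 FPKM in KO and WT, and Pgr, the progesterone receptor, at 0.01 FPKM in KO and listed at 0 in WT. These values stand for fewer than 10 reads each, by the shortest annotated transcript.

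Of the sterol sensors, FXR and LXR alpha read higher in KO, below 2-fold. Nr1h4 (Entrez gene 20186), which encodes the bile acid receptor FXR, was at 28.8 FPKM in KO and 17.0 FPKM in WT, a log2 ratio of 0.73. Nr1h3 (Entrez gene 22259), LXR alpha, was at 7.61 FPKM in KO and 4.61 FPKM in WT (log2 ratio 0.62). Nr1h2 (Entrez gene 22260), LXR beta, was at 35.8 FPKM in KO and 40.0 FPKM in WT. Its log2 ratio was -0.16 as deposited but 0.07 when the libraries were scaled by a trimmed mean of ratios (TMM), so no direction is given. The LXR sum was nearly the same, 43.5 FPKM in KO and 44.6 FPKM in WT, while the share of LXR alpha was 17.5% in KO and 10.3% in WT.

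Both HNF4 genes, which bind fatty acids constitutively and maintain enterocyte gene expression, were higher in KO without passing 2-fold. Hnf4a (Entrez gene 15378) had a log2 ratio of 0.50 and Hnf4g (Entrez gene 30942), at 66.0 FPKM in KO and 37.6 FPKM in WT, one of 0.80. With TMM scaling Hnf4g came to 1.03 and passed the call. Together they stood at 318 FPKM in KO and 215 FPKM in WT, and the share of Hnf4g was 20.8% in KO and 17.5% in WT.

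The retinoid receptors, including the RXR partners of the classes above, had a median log2 ratio of -0.02 as deposited and 0.16 with TMM scaling, so the class has no direction. Rxra (Entrez gene 20181) was at 24.1 FPKM in KO and 16.9 FPKM in WT, a log2 ratio of 0.49. Rxrb (Entrez gene 20182) was at 13.3 FPKM in KO and 17.6 FPKM in WT, a log2 ratio of -0.38, and stayed below 0 under both other scalings. The sum of the RXR genes was 37.5 FPKM in KO and 34.5 FPKM in WT, but Rxra held 64.4% of it in KO and 49.0% in WT. Rxrg, an isotype of muscle and brain, was at 0.03 FPKM in KO and listed at 0 in WT.

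The retinoic acid receptors differed little. Rara was at 6.67 FPKM in KO and 7.48 FPKM in WT (log2 ratio -0.14, and 0.06 with TMM scaling). Rarg was at 2.27 FPKM in KO and 2.06 FPKM in WT (0.10). Rarb, which retinoic acid itself induces, was at 0.28 FPKM in KO and 0.30 FPKM in WT, and shares exon bases with the opposite gene Top2b, at 15.3 FPKM in KO and 16.7 FPKM in WT.

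**Figure D3:**
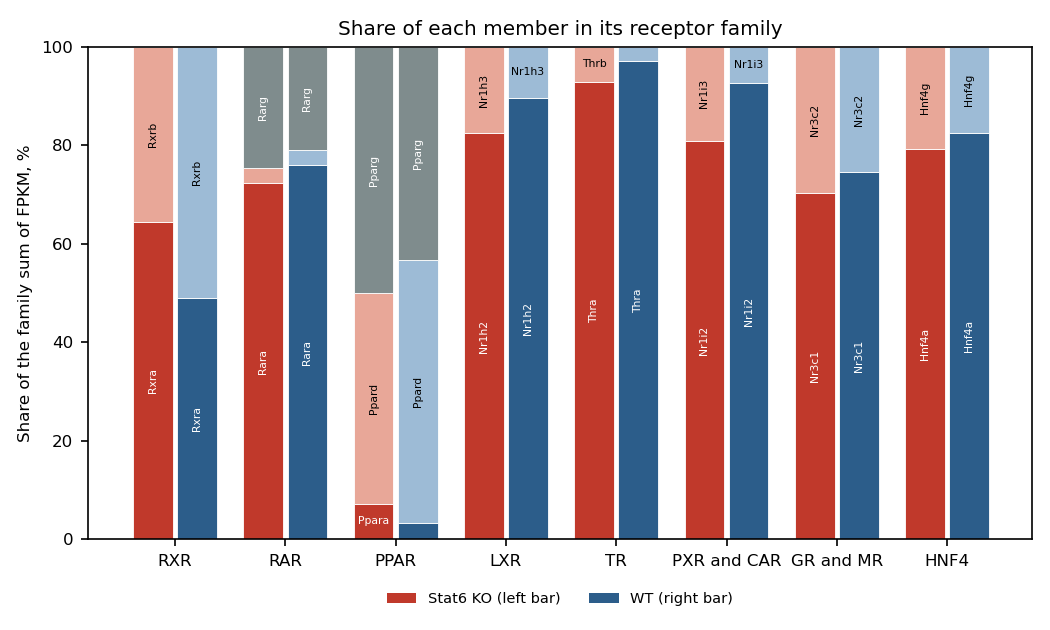
Share of each member in the FPKM sum of its receptor family, in percent, with the Stat6 KO library as the left bar and the WT library as the right bar of each pair. Rxra holds 64.4% of the RXR sum in KO and 49.0% in WT, and Nr1i3 holds 19.0% of the PXR and CAR sum in KO and 7.30% in WT.

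Among the orphans, the estrogen-related receptors govern mitochondrial genes. Esrra (Entrez gene 26379) was at 95.9 FPKM in KO and 72.0 FPKM in WT, a log2 ratio of 0.41, and Esrrg at 1.45 FPKM in KO and 1.20 FPKM in WT, with a log2 ratio of 0.16. Esrrb, a factor of embryonic stem cells, was at 0.05 and 0.08 FPKM in KO and WT. Esrra overlaps Trmt112 on the opposite strand, which was at 28.1 FPKM in KO and 39.1 FPKM in WT. On the same strand Esrra shares exon bases with the microRNA gene Mir6990, at 15.4 FPKM in KO and 10.1 FPKM in WT.

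The NR4A genes are immediate early genes whose level follows recent stimulation rather than a ligand. Nr4a1 (Entrez gene 15370) was at 2.27 FPKM in KO and 5.25 FPKM in WT, the lowest log2 ratio of the members, -0.93. Its plain ratio was 0.432, with a counting interval of 0.346 to 0.544. Nr4a3 was at 0.28 FPKM in KO and 0.52 FPKM in WT, and Nr4a2 at 1.09 FPKM in KO and 1.00 FPKM in WT (0.06). The measured members of this class lay on both sides of 0.

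The NR2 orphans, which often repress by occupying hexamer repeats, lay close to the median of all genes. Nr2f6 (Entrez gene 13864), also called EAR2, was the most abundant, at 36.8 FPKM in KO and 39.1 FPKM in WT (log2 ratio -0.09). Nr2c1 was at 4.99 FPKM in KO and 5.71 FPKM in WT (-0.16), and Nr2c2 at 5.41 FPKM in KO and 5.90 FPKM in WT (-0.11). All 3 of these values lay above 0 with TMM scaling, at 0.14 for Nr2f6, 0.03 for Nr2c1 and 0.09 for Nr2c2, so no direction is given. Nr2f2, a factor of mesenchyme and venous endothelium, had the lowest log2 ratio of the measured members of the class (-0.28), with 1.26 FPKM in KO and 1.74 FPKM in WT, and its relative Nr2f1 was at 0.10 and 0.13 FPKM in KO and WT. Endothelial markers, at 8.73 FPKM in KO and 20.1 FPKM in WT, were lower in the same library as Nr2f2, and their part in it was not tested.

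Nr5a2 (Entrez gene 26424) encodes LRH-1, which supports crypt cell renewal and local steroid synthesis, and was at 4.07 FPKM in KO and 2.16 FPKM in WT. Its log2 ratio was 0.68 and its plain ratio 1.88, with a counting interval of 1.40 to 2.51. Nr6a1, a germ cell and embryonic repressor, was at 3.70 FPKM in KO and 3.91 FPKM in WT (-0.06, and 0.12 with TMM scaling). Rora, which binds sterols, was at 0.22 FPKM in KO and 0.40 FPKM in WT. Nr0b2 encodes SHP, a receptor without a DNA-binding domain that FXR induces, and was at 0.16 FPKM in KO, about 3.59 reads, and listed at 0 in WT.

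Genes that the receptors are known to regulate were read the same way, in lists taken from general knowledge. The 11 PXR and CAR targets, enzymes and pumps of drug clearance, lay above the all-gene median without exception. Of these 5 were at least 2-fold higher and 0 lower, beside 2.44% and 2.18% of all genes, with a median log2 ratio of 0.95. The same shares of all genes stand behind the counts of the lists that follow. The drug-oxidising cytochrome Cyp2b10 was at 83.7 FPKM in KO and 11.6 FPKM in WT (2.75), the carboxylesterase Ces2a at 374 and 60.7 FPKM (2.60) and the cytochrome Cyp3a11 at 40.6 and 8.15 FPKM (2.19). The glucuronosyltransferase Ugt1a1 had a log2 ratio of 2.01 and the efflux pump Abcb1a one of 1.08. Cyp2c55, at 287 FPKM in both libraries (0.00), and the haem synthesis enzyme Alas1 (0.08) were the lowest. Several of these genes belong to families with close copies, so single values are uncertain. The summed enterocyte markers, at 15840 FPKM in KO and 4398 FPKM in WT, moved with this list and the next, and their part in these values was not tested.

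The HNF4 targets had the highest median, 1.30, with 4 of 7 higher and 0 lower. The apolipoprotein genes Apoa1 (2.71), Apoa4 (1.64) and Apoc3 (1.37) and the lipid transfer protein gene Mttp (1.30) were the higher members, whereas Ttr (0.25), a carrier of thyroid hormone and retinol, was not. Of the 7 genes 2, Apoa1 and Apoa4, also stand in the enterocyte marker list.

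Of the PPAR targets, 15 of 16 were measured, 2 were higher and 0 lower, with a median of 0.48. Fabp1, a fatty acid binding protein and enterocyte marker, had a log2 ratio of 1.80, and the pantetheinase Vnn1 one of 1.05. The lipid droplet protein Plin2 was at 125 FPKM in KO and 151 FPKM in WT (-0.27). The carnitine carrier Slc25a20 had a log2 ratio of 0.80, and 11 measured members were above 0 and 4 below.

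The sterol and bile acid targets were split. Among LXR targets 5 of 10 were measured, and the sterol exporters Abcg5, at 103 FPKM in KO and 44.6 FPKM in WT (1.19), and Abcg8, at 37.7 FPKM in KO and 18.1 FPKM in WT (1.02), were higher. The lipogenic genes Fasn (-0.53) and Srebf1 (0.11) were not, and the classic target Abca1 was at 0.99 FPKM in KO and 0.66 FPKM in WT. All 4 FXR targets were measured, of which 1 was higher and 2 lower. The basolateral bile acid exporter subunits Slc51a, at 44.5 FPKM in KO and 18.1 FPKM in WT (1.25), and Slc51b, at 34.1 FPKM in KO and 18.6 FPKM in WT (0.84), stood against the bile acid binding protein Fabp6, at 122 FPKM in KO and 310 FPKM in WT (-1.34), and the hormone Fgf15, at 4.96 FPKM in KO and 13.2 FPKM in WT (-1.25).

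Of 5 VDR targets in the files 4 were measured. The calcium-binding protein S100g was at 32.5 FPKM in KO and 13.3 FPKM in WT (1.23), the manganese exporter Slc30a10 at 19.3 FPKM in KO and 9.23 FPKM in WT (0.99), the calcium pump Atp2b1 had a log2 ratio of 0.19, and the claudin Cldn2 one of -0.51. The calcium channel Trpv6 was at 0.03 FPKM in KO and 0.02 FPKM in WT.

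In the steroid, thyroid hormone and retinoic acid target lists no measured gene had a log2 ratio past the 2-fold call, beside 2.44% and 2.18% of all genes. By the plain ratio 2 of them were past 2-fold lower, beside 5.75% of all genes, namely Hr, at 2.38 FPKM in KO and 5.23 FPKM in WT, and Hsd11b2, at 0.46 FPKM in KO and 1.04 FPKM in WT. Of 7 measured glucocorticoid receptor targets 6 lay above the all-gene median of -0.18, and 1 lay above 0, where 30.3% of all genes did. Their median was -0.10. Fkbp5, a sensitive glucocorticoid reporter, was at 11.1 FPKM in KO and 12.2 FPKM in WT (-0.13), Tsc22d3 had a log2 ratio of -0.02, Mt2 one of -0.05, Dusp1 one of 0.45 and Ddit4 one of -0.20. The mineralocorticoid targets (4 of 5 in the files measured, median -0.06) ran from Scnn1a, an epithelial sodium channel subunit (0.19), to the corticosteroid-inactivating enzyme Hsd11b2 (-0.48), with Sgk1 at -0.10. Sgk1 and Tsc22d3 stand in both this list and the glucocorticoid list, so the lists are not separate readings. Thyroid hormone targets (4 of 6 measured, median -0.07) ran from the deiodinase Dio1 (0.43) and Me1 (0.01) to Klf9 (-0.15) and Hr (-0.88). Retinoic acid targets (4 of 9 measured, median 0.00) included values from the retinal reductase Dhrs3 (0.61) and Isx (0.05) to Tgm2 (-0.05), and Cyp26a1, a sensitive retinoic acid reporter, was listed at 0 in both libraries.

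The 6 ERR targets, mitochondrial enzymes, had 0 past 2-fold, beside 2.44% of all genes higher and 2.18% lower, so that the count says little of so few genes. Their median was 0.28 against -0.18 over all genes, and values ran from Acadm (0.48) and Idh3a (0.45) to Cs (0.11) and Cycs (-0.16). Of the LRH-1 targets only Ccne1, a cyclin, was measured, at 7.56 FPKM in KO and 12.5 FPKM in WT (-0.66), while the steroidogenic enzyme Cyp11a1 was at 0.09 FPKM in KO and 0.38 FPKM in WT.

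**Figure D4:**
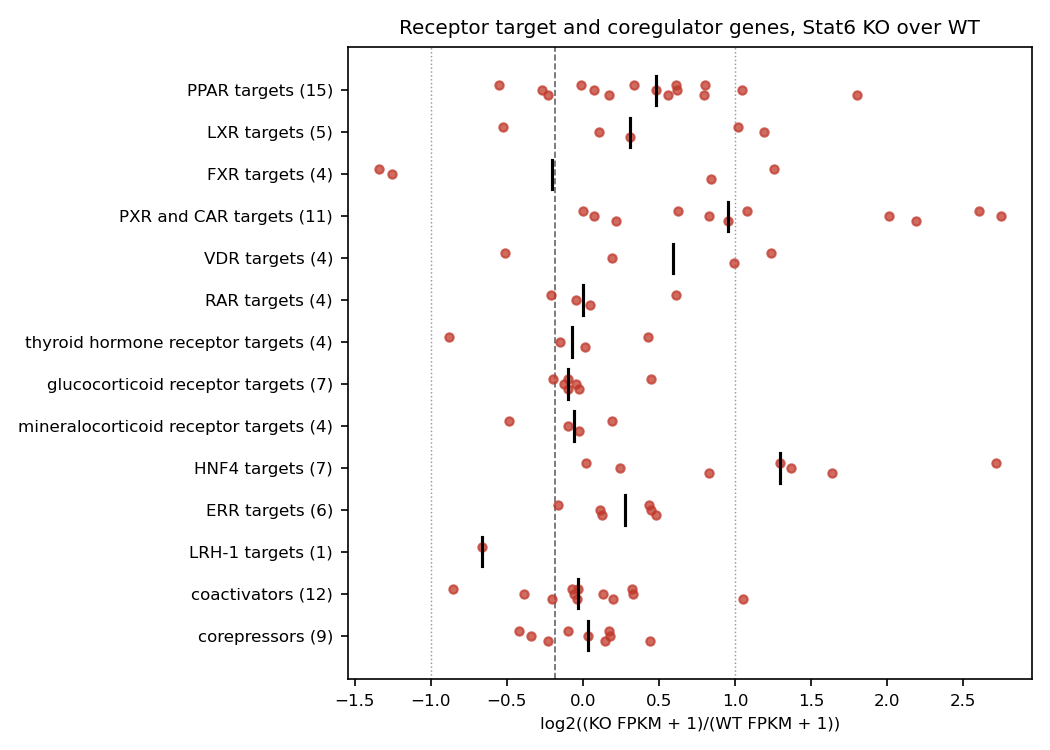
log2 ratio of each measured target or coregulator gene, Stat6 KO over WT, by list, with the number of measured genes in brackets and the list median as a black bar. The dashed line is the median of all genes (-0.18) and the dotted lines mark 2-fold. PXR and CAR targets (median 0.95) and HNF4 targets (1.30) lie to the right, and FXR targets lie on both sides.

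Coregulators, the proteins that receptors recruit to activate or repress, were read last. Of 21 measured, 1 was at least 2-fold higher and 0 lower, close to the 2.44% and 2.18% of all genes, with a median of -0.03. The higher gene was Ppargc1a, a coactivator of PPAR and ERR proteins, at 7.60 FPKM in KO and 3.15 FPKM in WT (1.05). Its relative Pprc1 was at 7.89 FPKM in KO and 15.1 FPKM in WT (-0.85), and Ppargc1b had a log2 ratio of -0.39. The steroid receptor coactivator Ncoa1 (0.33) was the next highest coactivator. Among 9 corepressors, named examples ran from Gps2 (-0.42) to Tbl1xr1 (0.18) and Ncor1, at 54.1 FPKM in KO and 39.7 FPKM in WT (0.44).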

How the data were processed

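Total RNA of 1 Stat6 KO and 1 WT culture was sequenced from 1 end in 50 base reads (an average of 59000000 a sample) on a BGISEQ-500, per the labels' protocols. The deposited values are FPKM per gene with 2 decimals, per the file headers. The submitters' processing notes name HISAT, Bowtie2, RSEM and mm9, while versions, roles, annotation and strand setting are not given. Since FPKM is relative to a library total, very abundant genes that differ between the libraries shift all others.

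The log2 ratio with a pseudocount of 1 FPKM was computed for genes that reached 1 FPKM in KO, in WT or in both. The pseudocount understates differences of low genes. No test was run, since each genotype has 1 library, and counts were not available for a count model. Depth was estimated from FPKM steps of short RNA genes (70 to 400 bases), as the number between 10000000 and 30000000 that brought values of up to 5 reads closest to whole reads, with lengths reduced by 37 bases. Within 0.1 read of a whole number lay 86.6% of such values in KO and 82.7% in WT, and these shares are no separate check. The steps fix the depth only up to whole multiples, and the 59000000 reads of the labels lie outside that range, at 2.88 times the estimate in KO and 2.94 times in WT. By the estimate 45 of 97 such values in KO and 45 of 104 in WT stood for 1 read, while at 59000000 reads only 2 and 8 of them would stand for fewer than 2.5 reads. The estimate also put 2 of the values in KO and 5 in WT nearest to 0 reads, although they were listed above 0. It therefore does not account for all values. How many reads were assigned to genes was not stated, and a larger depth would narrow the intervals. Read numbers and 95% exact binomial intervals of ratios used the shortest GENCODE M21 transcript with a RefSeq match. They cover counting error only. The members, lists and rules were chosen with earlier results of these data known. All members are named, and of each target list the 2 highest, the 2 lowest and those past 2-fold, with some others chosen after their values were seen. Some genes that this rule selects are left out here. Alternatives were pseudocounts, scalings, level filters and thresholds, and a plain FPKM ratio, which was added after seeing the data. The TMM factor left out 30% of ratios and 5% of levels at each end. The 2-fold calls and the TMM factor were tried on simulated data, and the other calculations were not. Python 3.11.15, numpy 2.4.6, pandas 2.3.3, scipy 1.17.1 and matplotlib 3.10.9 were used.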

Additional observations from a re-analysis of the deposited data

How the results depend on the processing

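The count of receptors at least 2-fold higher in KO, 2 as reported, was 4 with a pseudocount of 0.1 FPKM or with the plain FPKM ratio (an alternative chosen after seeing the data), adding Thrb and Nr3c2. It was 6 with the TMM factor, adding Thrb, Nr3c2, Vdr and Hnf4g, 5 with the median of all genes set to 0, 10 at a threshold of 1.5-fold, and 0 with a pseudocount of 5 FPKM or at 4-fold. The count of lower receptors, 0 as reported, was 1 (Nr4a1) with a pseudocount of 0.1 FPKM, with the plain ratio and at 1.5-fold, beside 5%, 5.75% and 11.4% of all genes. Beside the higher counts, 3.10% of all genes were higher with a pseudocount of 0.1 FPKM, 3.23% with the plain ratio and 3.64% with the TMM factor. The share was 3.39% with the median of all genes set to 0 and 5.70% at 1.5-fold. It was 1.19% with a pseudocount of 5 FPKM and 0.42% at 4-fold. Filters on low values left the higher count at 2, beside 1.56% to 2.52% of all genes. The median of the receptors ranged from 0.08 with no minimum level to 0.62 with the TMM factor. The steroid receptor median was 0.014 with no minimum level, since 3 near-silent members then enter. Between the 3 scalings the sign of 6 of 29 members changed, namely Nr1h2, Nr2c1, Nr2c2, Nr2f6, Nr6a1 and Rara. Scaling by TMM moved the median of all genes from -0.18 to 0.02, and the calls over all genes, 295 higher and 263 lower as reported, became 440 and 171. A pseudocount of 0.1 FPKM gave 374 higher and 604 lower. No paired analysis was possible because each genotype has 1 library. For members at about 1 FPKM, depth limits a ratio to an interval such as 0.780 to 1.54 for Nr4a2.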
